A study of Mus musculus with 69 samples.

Results

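The kinesin family was examined in single cells of the embryonic mouse cerebral wall. Members were all genes whose symbol is Kif or Kifc followed by a digit, which gave 41 genes of the 18194 genes with a probe set of their own on the array. Each sample was 1 cell, picked by hand after trypsin digestion of the dorso-lateral cerebral wall of CD1 mice at embryonic day 14, with no genetic change or treatment named in the labels. By source label, 3 cells came from the cortical plate (CP), which young neurons enter once born, and 66 came from the VZ/SVZ, the ventricular zone and subventricular zone that line the ventricle and hold dividing progenitors. For the 3 CP cells the separate description field reads VZ/SVZ, and the source label was followed. All 3 CP cells carry the title letter E and no other cell does, so letter and group cannot be told apart, and the meaning of the letter is not given.

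Kinesins are motor proteins that use ATP to act on microtubules. Some build the mitotic spindle, move chromosomes or organise the midbody, the bridge that joins daughter cells before they part. Others carry vesicles, mitochondria and protein complexes along axons and dendrites, and a few act in the primary cilium, where hedgehog signalling takes place. In the developing cortex, progenitors divide next to the ventricle, and neurons leave the cell cycle and then grow axons. By known roles the 41 members were placed in 4 lists, with 14 mitotic, 13 axonal transport, 5 cilium and hedgehog, and 9 other kinesins.

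The labels tie no cell to an animal or litter, so a group counts as 1 sample and no test or p-value is given. Signals are microarray intensities. A member was called found in a cell where its signal was above 50, a value that none of 207 readings of the array's TrpnX control probe sets reached. Mean levels are in log2 units after values under 6.26 were set to that floor, with the SD over cells. A difference of at least 1 log2 unit was taken as the size of interest, which is not a test. Intervals of shares are exact 95% binomial (Clopper-Pearson) intervals and those of share differences are Newcombe intervals, and both cover counting error only.

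The VZ/SVZ cells were sorted by 3 marker genes. Mki67, a protein of cycling cells, was above 50 in 55 cells and not in 11, with no cell between 12.5 and 490. Eomes, a transcription factor of intermediate progenitors, was above 50 in 28 cells and not in 38. Tubb3, a neuronal tubulin, was above 50 in 35 cells and not in 31. Of the 11 cells without Mki67, 10 had Tubb3 and 1 had Eomes, and 7 of them were the 7 cells of title letter D, 3 were of letter X and 1 was of letter C. The 3 CP cells had Tubb3 signals from 2064 to 3001 and neither Mki67 nor Eomes above 50. Such classes are ranges of 1 gene and not cell types.

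The labelled tissue was checked with marker lists. Of the dorsal forebrain transcription factors, Lhx2, Pax6 and Emx2 were found in 0 of the 3 CP cells, against 66, 56 and 45 of the 66 VZ/SVZ cells, and Emx1 was found in 1 CP cell and 54 VZ/SVZ cells. All 8 neuron markers were higher by at least 1 log2 unit in CP cells than in VZ/SVZ cells, and all 8 apical progenitor markers were lower. Of the 11 markers of interneurons, microglia, endothelium, blood, mesenchyme and oligodendrocyte precursors, 5 were found in any cell, each in 1 or 2 VZ/SVZ cells and in no CP cell. A median of 3982 genes was found per CP cell and 4770.5 per VZ/SVZ cell. The thr spike RNA, the scarcest added to each cell, was found in 0 of 3 CP cells and 27 of 66 VZ/SVZ cells.

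Over the 69 cells, 19 of the 41 kinesins were found in at least 25% of cells. These were 7 of the 14 mitotic members (Kif2c, Kif4, Kif11, Kif18a, Kif20a, Kif22 and Kif23), 10 of the 13 axonal transport members, and the 2 cilium members Kif7 and Kif24. A further 15 members were found in fewer cells, and 7 (Kif2b, Kif6, Kif9, Kif12, Kif15, Kif17 and Kif28) in none. Kif1b, a carrier of synaptic vesicle precursors and mitochondria, was the most widely found, in 3 of 3 CP cells and 64 of 66 VZ/SVZ cells. Kif5b and Kif21a were found in 63 of 66 VZ/SVZ cells each. A member not found in a cell was below the level these arrays measured, which does not show that it was absent.

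**Figure D1:**
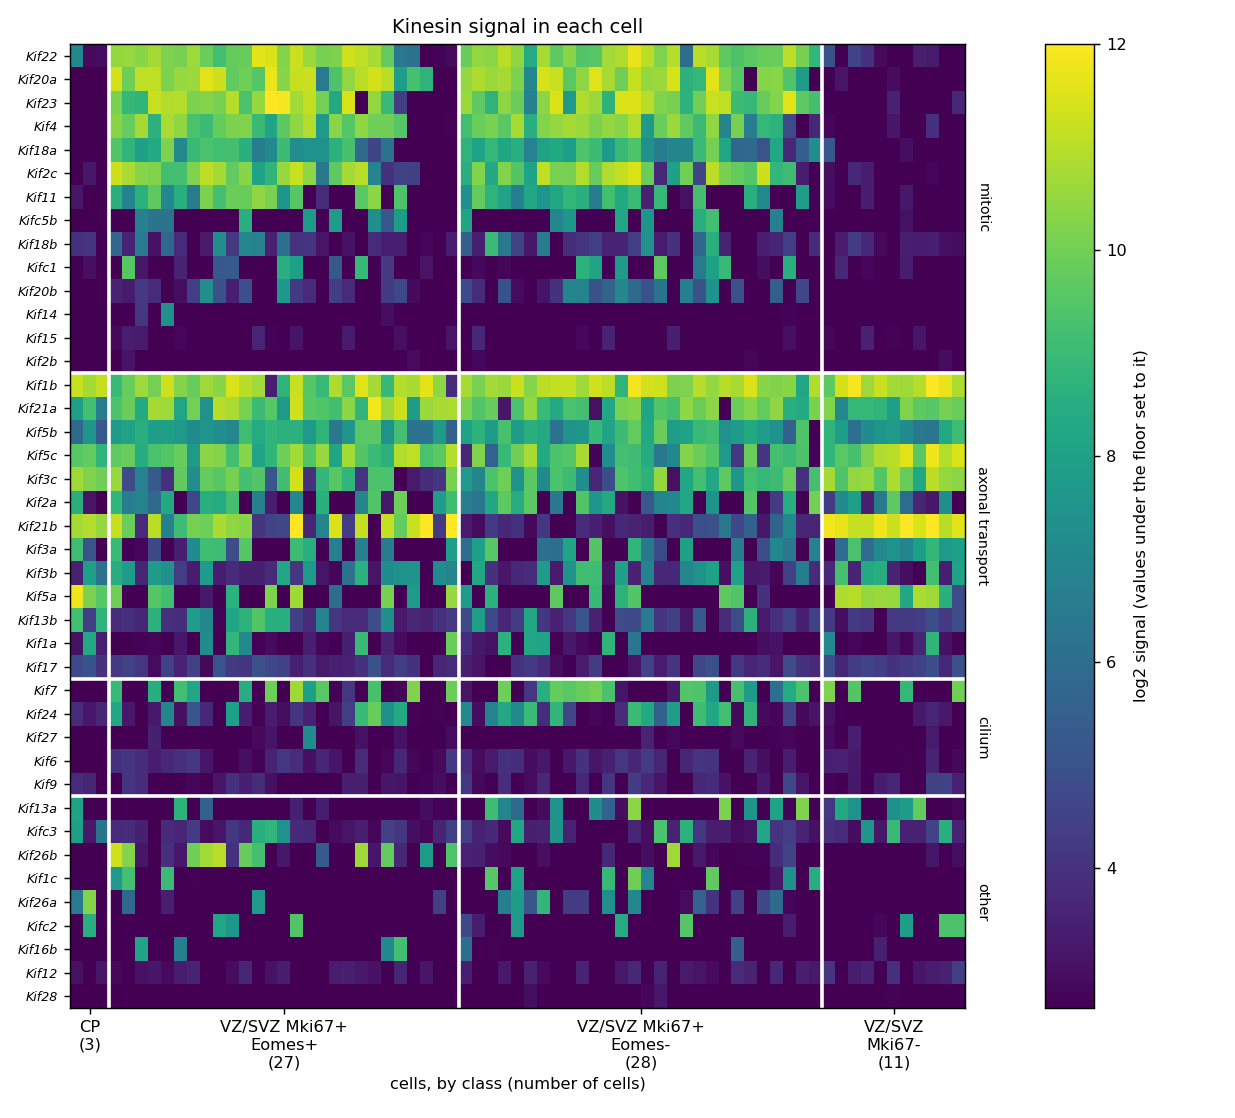
Signal of the 41 kinesins (rows, by list) in each of the 69 cells (columns, by class), as log2 signal floored at 6.26. The 7 mitotic kinesins at the top are bright in most of the 55 VZ/SVZ cells with Mki67 (27 with and 28 without Eomes) and dark in the 11 VZ/SVZ cells without it, while Kif1b and Kif5b are bright in nearly every column.

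The mitotic kinesins followed Mki67. No mitotic member was found in any of the 11 VZ/SVZ cells without Mki67, and 7 of them were found in 37 to 52 of the 55 cells with it. Of the 14 mitotic members, 11 were higher by at least 1 log2 unit in cells with Mki67 and 0 lower, where 14.7% of all 18194 genes were higher and 8.37% lower. Among the 7057 genes found in at least 25% of cells, 33.8% were higher and 15.2% lower, and the median gene was 0.41 higher in cells with Mki67. Set against that median, 9 mitotic members were higher by at least 1, as were 25.1% of the commonly found genes, while 22.3% were lower. The median difference of the 14 was 2.72, against 0.02 over all genes, and 0.53 with each member found on 1 side only taken at its lower bound.

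Kif20a, a midbody kinesin that recruits Plk1 in cytokinesis, had signals from 0.499 to 3397 with a median of 1401 in cells with Mki67, against 0.349 to 8.86 in cells without. It was found in 51 of 55 cells with Mki67 (92.7%, interval 82.4 to 98%) and in 0 of 11 without (0 to 28.5%), a share higher by 92.7 points (65 to 97.1). Its mean was 9.69 ± 2.29 with Mki67 and 2.72 ± 0.17 without, which is at least 16.5-fold higher when the cells without are taken at the limit of 50. The groups overlapped only through the 4 cells with Mki67 that lacked Kif20a.

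Kif22, a chromokinesin that pushes chromosome arms towards the spindle equator, was found in 52 of 55 cells with Mki67 and in 0 of 11 without. Its median signal was 1176 with Mki67 and 7.46 without, and its mean at least 16.6-fold higher. The other probe sets of Kif22 showed the same split, with 44 and 48 cells with Mki67 above 50 and none without.

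Kif23, the motor subunit of centralspindlin at the midzone and midbody, was found in 49 of 55 cells with Mki67 and 0 of 11 without, with median signals of 1112 and 1.95. Its mean was 9.36 ± 2.52 with Mki67 and 2.82 ± 0.40 without, at least 13.1-fold higher. Kif4, a chromokinesin that also limits the length of midzone microtubules, was found in 48 of 55 cells with Mki67 and 0 of 11 without, with means of 8.86 ± 2.42 and 2.82 ± 0.40. The last of these bright members, Kif2c, a centromere microtubule depolymerase that corrects faulty attachments, was found in 45 of 55 cells with Mki67 and 0 of 11 without, and its mean was at least 8.48-fold higher.

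Kif18a and Kif11 were dimmer. Kif18a, which dampens chromosome movement at the spindle equator, was found in 46 of 55 cells with Mki67 and 0 of 11 without, with median signals of 251 and 2.20. Kif11, the plus-end motor that holds spindle poles apart, was found in 37 of 55 cells with Mki67 (67.3%, interval 53.3 to 79.3%) and 0 of 11 without, with means of 6.71 ± 2.92 and 2.80 ± 0.27. The 18 cells with Mki67 that lacked Kif11 lay at the floor or close to it, so the spread of Kif11 came from cells that had it or did not.

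Of the other mitotic members, Kif18b was found in 13 of 55 cells with Mki67, Kif20b in 9, Kifc1 in 12, Kifc5b in 16 and Kif14 in 1, and in none of the 11 without. Kifc1 and Kifc5b, minus-end motors, are near-identical copies whose probes could read both, so their split is uncertain. Kif15, another motor of spindle bipolarity, and Kif2b were found in no cell.

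Of 14 spindle and midbody partners of these motors, 13 were higher in cells with Mki67, with a median difference of 6.25 (4.24 with bounds). Cdca8, a chromosomal passenger protein, was found in 53 of 55 cells with Mki67 and 1 of 11 without, and Birc5 and Aurkb, its partners, were found in 51 each and in 0 without. Plk1, a mitotic kinase, was found in 50 and 0. Other partners were also found in cells without Mki67. Racgap1, which joins Kif23 in centralspindlin, was found in 52 of 55 and 4 of 11 cells, and Incenp, the scaffold of the chromosomal passenger complex, in 51 of 55 and 3 of 11. Cit, the citron kinase of the midbody, was found in 31 of 55 and 7 of 11 cells and was the 1 partner not higher by at least 1. In the 11 cells without Mki67 the Cit signals lay near the limit of 50, from 43.9 to 98.8 apart from 1 cell at 248. Racgap1, Incenp and Cit are named after their values were seen.

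**Figure D2:**
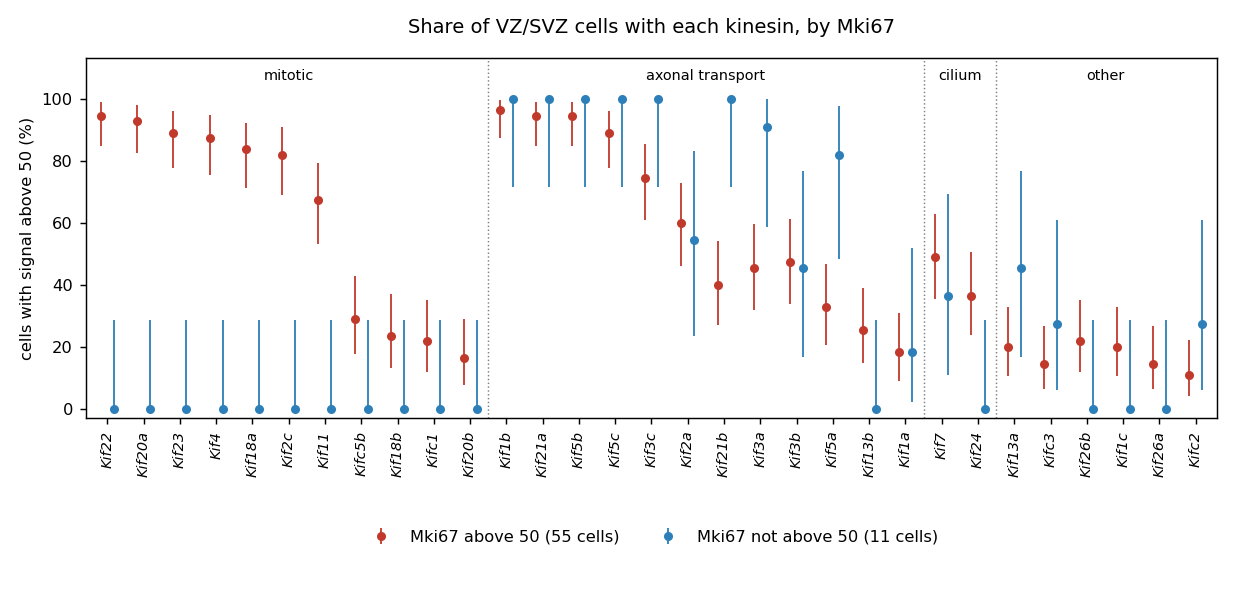
Share of VZ/SVZ cells with signal above 50 (vertical axis, %) for the kinesins found in at least 7 of the 69 cells, by Mki67. Red points are the 55 cells with Mki67 and blue points the 11 without, and bars are exact 95% binomial intervals. Every mitotic kinesin plotted sits at 0 in blue, and Kif21b, Kif5a and Kif3a sit higher in blue than in red.

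Of the 7, most VZ/SVZ cells had at least 6 or none, and the cells with none were nearly all those without Mki67. Of the 55 cells with Mki67, 29 had all 7, 17 had 6, 1 had 5, 3 had 4, and 5 had 3 or fewer. The 11 cells without Mki67 had 0, and the CP cells had 0, 0 and 1. Of the 5 cells with Mki67 and 3 or fewer members, 4 had Eomes and 3 of those also had Tubb3. The numbers of genes found in these 5 cells were 3822, 4046, 4169, 4750 and 4613, against a median of 4939 in cells with Mki67. The 2 that had none were a cell of letter B with a Mki67 signal of 490, the lowest of all cells above 50, and a cell of letter X with 1139. The letter X cell had Kif21b at 4210 and Kif5a at 1493, and 8 of the 14 spindle and midbody partners.

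**Figure D3:**
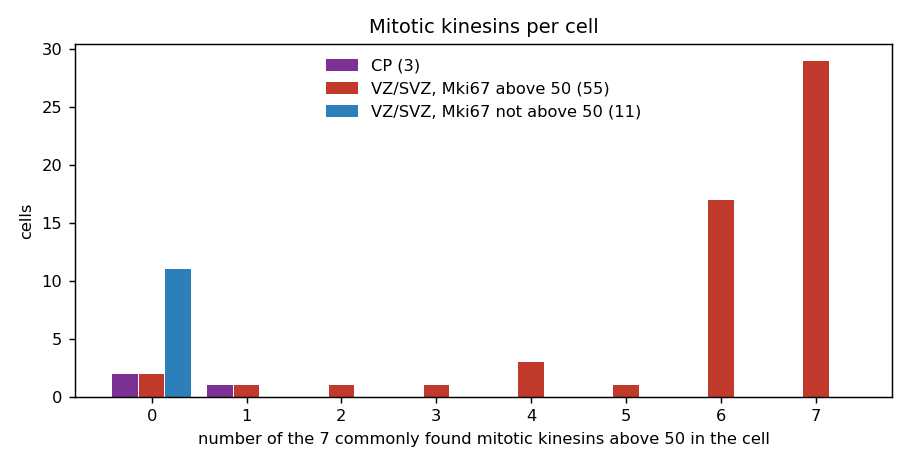
Number of cells (vertical axis) by how many of the 7 commonly found mitotic kinesins were above 50 in the cell (horizontal axis), for 3 CP cells, 55 VZ/SVZ cells with Mki67 and 11 without. The cells with Mki67 pile up at 6 and 7 and the cells without are all at 0.

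Across cells the 7 varied together. The Pearson correlation of log2 signal over the 21 pairs had a median of 0.80 (0.48 to 0.89) in the 66 VZ/SVZ cells and 0.60 (0.22 to 0.77) in the 55 cells with Mki67. The 45 pairs of axonal transport members had medians of 0.03 and 0.04 in the same cells. The number of mitotic members found correlated with the number of spindle and midbody partners found at 0.93 over 66 cells and 0.82 over 55. Cells share amplification and depth, and the number of mitotic members also correlated with the number of genes found in the cell at 0.62 over 66 cells and 0.58 over 55. The median number of genes found was 4939 in cells with Mki67 and 4192 in cells without, and the thr spike was found in 25 of 55 and 2 of 11. The part of depth in these results was not tested.

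Because the 7 commonly found mitotic members moved together, promoters of some of them are shown here with that of a member that stayed out of the group. Windows from 250 bases before to 50 after the start site were taken from RefSeq (GRCm38.p6) for the 33 members with a window there that could be used. The cell cycle genes homology region (CHR, TTTGAA or TTCGAA on either strand) and the CCAAT box (CCAAT on either strand) are motifs known from genes active late in the cell cycle. Each was searched on its own, and matches that overlapped the other were kept. The CHR was present in 11 of 13 mitotic members and 1 of 9 axonal transport members, against 21.7% of 27025 genes in the table. The CCAAT box was present in 9 of 13 and 3 of 9, against 41.1% of genes, and the GC box (GGGCGG on either strand) in 6 of 13 and 7 of 9, against 38.2%. The 13 include Kif2b and Kif15, which were found in no cell. Among the 7 commonly found mitotic members, 6 had such a window, with the CHR in 5, the CCAAT box in 4 and the GC box in 4. These counts describe letters in a window and not binding. Below are 150 bases per member, from 100 before to 50 after the start site, 5′ to 3′ on the strand of the gene, with CHR and CCAAT matches in capitals. Kif22 has its nearest CHR 17 bases and Kif11 19 bases before the start, Kif23 and Kif4 have it just after the start, and Kif18a has neither motif although it was found in 46 of 55 cells with Mki67. Kif5c, an axonal motor found in nearly all cells, also has neither. The windows lie at chr7:127042371-127042520 (minus strand) for Kif22, chr9:61946750-61946899 (minus) for Kif23, chrX:100625965-100626114 (plus) for Kif4, chr19:37376282-37376431 (plus) for Kif11, chr2:109280638-109280787 (plus) for Kif18a and chr2:49619186-49619335 (plus) for Kif5c.
Kif22: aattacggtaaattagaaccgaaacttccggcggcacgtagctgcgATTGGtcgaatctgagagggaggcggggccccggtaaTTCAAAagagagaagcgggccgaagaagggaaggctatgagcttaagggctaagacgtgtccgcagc
Kif23: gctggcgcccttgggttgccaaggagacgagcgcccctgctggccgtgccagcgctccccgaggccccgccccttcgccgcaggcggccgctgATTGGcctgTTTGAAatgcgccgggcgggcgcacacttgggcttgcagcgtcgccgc
Kif4: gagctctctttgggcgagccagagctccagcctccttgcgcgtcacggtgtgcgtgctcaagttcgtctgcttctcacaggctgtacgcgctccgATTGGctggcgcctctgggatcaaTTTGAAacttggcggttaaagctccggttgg
Kif11: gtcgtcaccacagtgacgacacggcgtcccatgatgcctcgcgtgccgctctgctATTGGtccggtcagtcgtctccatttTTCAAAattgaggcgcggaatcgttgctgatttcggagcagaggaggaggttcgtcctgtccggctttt
Kif18a: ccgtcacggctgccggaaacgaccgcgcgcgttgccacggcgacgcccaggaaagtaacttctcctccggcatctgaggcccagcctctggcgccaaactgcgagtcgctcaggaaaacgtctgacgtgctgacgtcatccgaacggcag
Kif5c: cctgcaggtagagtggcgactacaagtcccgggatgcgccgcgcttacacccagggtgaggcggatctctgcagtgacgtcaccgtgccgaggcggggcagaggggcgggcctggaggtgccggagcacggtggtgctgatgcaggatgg

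The axonal transport kinesins were mostly found with and without Mki67, and 5 of 13 had levels at least 1 log2 unit lower in cells with Mki67 and 0 had higher ones (6 and 0 when set against the median of the commonly found genes, of which 22.3% were then lower). The list is one of known roles and is not uniform, since Kif2a is a microtubule depolymerase that limits axon branching. The median difference of the list was -0.59 (-0.29 with bounds). Neuron markers moved with it, since all 8 were lower in cells with Mki67, and all 8 apical progenitor markers were higher. Their part in these differences was not tested.

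Kif21b, a neuronal motor that also slows microtubule growth, differed the most. Its signals ran from 1.47 to 4844 with a median of 23.4 in cells with Mki67, and from 2052 to 4448 with a median of 3060 in cells without. It was found in 22 of 55 cells with Mki67 (40%, interval 27 to 54.1%) and 11 of 11 without (71.5 to 100%), a share lower by 60 points (31 to 71.9 in size). Its mean was 6.20 ± 3.31 with Mki67 and 11.54 ± 0.37 without, a difference of -5.34. The lowest cell without Mki67 stood above most but not all cells with it, so the groups overlapped at the top.

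Kif5a, a neuronal kinesin-1 heavy chain that carries neurofilaments, was found in 18 of 55 cells with Mki67 and 9 of 11 without, with median signals of 1.44 and 1493. Its means were 4.81 ± 3.13 and 9.01 ± 2.82, a difference of -4.20. Without the cells of letter D the cells without Mki67 number 4, of which 2 had Kif5a, and the difference was -1.85. That of Kif21b was then -5.43.

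Kif3c, a neuronal kinesin-2 subunit, was found in 41 of 55 cells with Mki67 and 11 of 11 without, with means of 7.75 ± 2.40 and 10.14 ± 0.82. Kif3a, a kinesin-2 subunit of both axons and cilia, was found in 25 of 55 and 10 of 11, with means of 5.12 ± 2.58 and 7.05 ± 1.80. Kif5c, another neuronal kinesin-1 heavy chain, was found in 49 of 55 and 11 of 11, with means of 8.78 ± 2.05 and 10.47 ± 1.02. The share of cells with Kif3a was lower by 45.5 points with Mki67, that with Kif3c by 25.5 points and that with Kif5c by 10.9 points.

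The ubiquitous kinesin-1 heavy chain Kif5b, by contrast, had means of 7.94 ± 1.25 with Mki67 and 7.51 ± 1.0 without, and Kif21a had 9.33 ± 1.83 and 9.20 ± 1.02. Kif1b was lower by 0.80 with Mki67 (10.27 ± 1.53 and 11.07 ± 0.69). Kif2a was found in 33 of 55 cells with Mki67 and 6 of 11 without, and Kif3b, the partner of Kif3a, in 26 of 55 and 5 of 11. Kif13b was found in 14 of 55 and 0 of 11, and Kif1a, the main synaptic vesicle motor of mature neurons, in 10 of 55 and 2 of 11. Kif17 was found in none.

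Several of these genes have probe sets that disagree. Another set of Kif1b was higher by 3.19 in cells with Mki67 (40 of 55 and 2 of 11 cells found), where the set used was lower by 0.80. Another set of Kif21a was lower by 1.39 with Mki67, against a difference of 0.13 for the set used. Other sets of Kif3a differed by -0.14, -0.48 and 0.07 with Mki67, against -1.93 for the set used. By Tubb3 they differed by 0.33, -0.28 and -0.62, against 2.12. Another set of Kif5c differed by -0.87 with Mki67 and 0.14 with Tubb3, against -1.69 and 1.35. The other set of Kif3c differed by -2.93 with Mki67, against -2.39 for the set used. Other sets of Kif5b found in any cell differed by -1.20, 0.25, 0.90 and -0.12 with Mki67, against 0.42 for the set used. Other sets of Kif3b differed by 0.96, -0.61 and -0.22 with Mki67, against -0.29. Probe sets can read different transcript ends, and which one follows the gene was not tested.

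**Figure D4:**
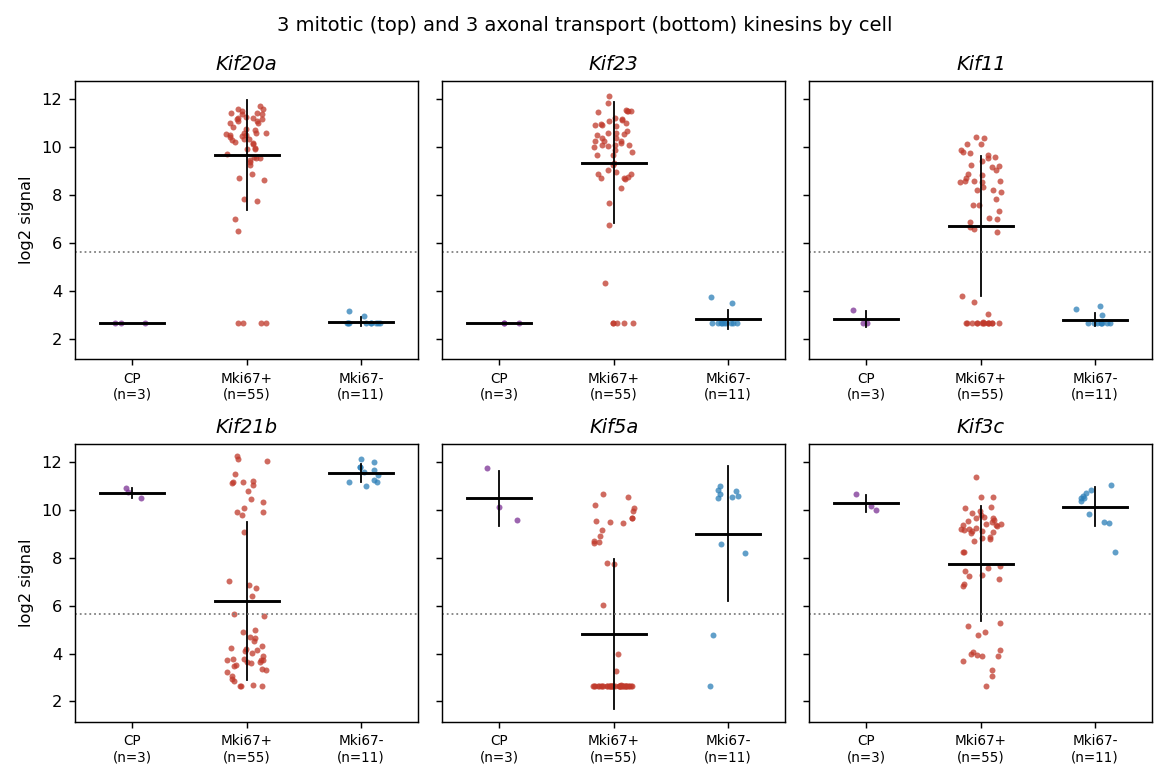
Log2 signal per cell (points) of 3 mitotic kinesins (top) and 3 axonal transport kinesins (bottom) in the 3 CP cells, the 55 VZ/SVZ cells with Mki67 (Mki67+) and the 11 without (Mki67-), with mean and SD as bars and the limit of 50 as a dotted line. The mitotic kinesins are bright in Mki67+ cells alone, and Kif21b is bright in all CP and Mki67- cells and split in Mki67+ cells.

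Among the cilium members, Kif24, which acts at the centriole to hold back cilium formation in cycling cells, was found in 20 of 55 cells with Mki67 and 0 of 11 without (a share higher by 36.4 points, 8.07 to 49.6). Its means were 5.09 ± 2.54 and 2.89 ± 0.36. Kif7, a regulator of hedgehog signalling at the cilium tip, was found in 27 of 55 and 4 of 11, with means of 5.90 ± 3.25 and 5.19 ± 3.54. Kif27 was found in 1 cell, with Mki67, and Kif6 and Kif9 in none.

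Of the 9 other kinesins, Kif1c was found in 11 cells with Mki67, Kif26b in 12, Kif26a in 8 and Kif16b in 5, and none of these in the 11 without. Kif13a, an endosome motor, was found in 11 of 55 and 5 of 11 cells, all 5 of letter D. Kifc2 was found in 6 and 3 cells and Kifc3 in 8 and 3, and Kif12 and Kif28 in none. For members found in so few cells the interval of 0 of 11 (up to 28.5%) covers most of their shares with Mki67.

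Within title letter X, the only letter with cells of both kinds in number, 28 cells had Mki67 and 3 did not. The 7 mitotic kinesins were found in 20 to 27 of the 28 and in none of the 3, with differences from 4.26 (Kif11) to 7.05 (Kif22). Kif21b was found in 5 of 28 and 3 of 3, and its level differed by -6.71. Kif5a was found in 9 of 28 and 2 of 3, and its level differed by -3.05. By letter, Kif20a was found in 7 of 7 cells of A, 13 of 14 of B, 6 of 7 of C, 0 of 7 of D and 25 of 31 of X.

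Kif21b divided the cells with Mki67 further. In those with Eomes it was found in 19 of 27 cells (70.4%, interval 49.8 to 86.2%), and in those without in 3 of 28 (10.7%, 2.27 to 28.2%), a share higher by 59.7 points (34.6 to 75.1). Its mean was 8.50 ± 3.26 with Eomes and 3.98 ± 1.12 without, a difference of 4.52. Split also by Tubb3, Kif21b was found in 16 of 17 cells with Mki67, Eomes and Tubb3, in 3 of 10 with Mki67 and Eomes, in 0 of 8 with Mki67 and Tubb3, and in 3 of 20 with Mki67 alone. The mean was 10.33 ± 2.12 in the 17 and 11.52 ± 0.38 in the 10 cells with Tubb3 alone, which do not differ beyond their spread, and 5.40 ± 2.40, 3.80 ± 0.62 and 4.05 ± 1.27 in the other 3 classes.

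Over all VZ/SVZ cells, with 28 having Eomes and 38 not, Kif21b was higher by 2.65 with Eomes and Kif26b by 2.75. Of the 13 axonal transport members 1 was higher by at least 1 (Kif21b) and 1 lower (Kif3c, by 1.07), and of the 14 mitotic members 3 were higher (Kif20a, Kif11 and Kif4) and 0 lower. By the other Kif3c probe set the difference with Eomes was 0.02. For Kif5c it was 0.93 with the set used and -0.26 with another set. Over all 18194 genes 4.15% were higher and 5.23% lower, and over the 7057 commonly found genes 9.66% and 11%. Eomes was all but confined to cells with Mki67 (27 of 28), and among those cells 0 mitotic members were higher and 1, Kif23, was lower by 1.29, found in 21 of 27 cells with Eomes and 28 of 28 without. Within cells with Mki67, 4.58% of all genes were higher with Eomes and 7.65% lower, and 10.5% and 16.3% of the commonly found genes, so 1 of 14 mitotic members lower is near the share over all genes. In the same cells 5 of 8 neuron markers were higher with Eomes and 1 lower, and 7 of 8 apical progenitor markers were lower and 1 higher. Among cells with Mki67 the median number of genes found was 4705 with Eomes and 5014 without. The part of these markers and of depth was not tested.

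Kif26b, a kinesin known to act in cell adhesion and migration rather than as a motor, was found in 11 of 27 cells with Mki67 and Eomes and 1 of 28 with Mki67 and no Eomes. The difference was 2.74, and the share differed by 37.2 points (15.6 to 55.9). Of the 12 cells with Kif26b, 9 had Mki67, Eomes and Tubb3, and no CP cell and no cell without Mki67 had it. Kif13a went the other way, found in 1 of 27 and 10 of 28 of these cells, a difference of -1.74. Kif5c was found in 27 of 27 cells with Eomes and 22 of 28 without, with means of 9.63 ± 0.93 and 7.97 ± 2.48.

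Cells with Eomes were not spread over the letters alike, with 13 of 14 in B, 7 of 7 in C, 8 of 31 in X, and none in A or D. Within letter X, Kif21b was found in 3 of 8 cells with Eomes and 5 of 23 without (a difference of 1.95), Kif26b in 3 of 8 and 0 of 23 (2.62), and Kif13a in 0 of 8 and 8 of 23 (-2.04). These 23 cells, unlike those compared above within Mki67, include the 3 letter X cells without Mki67. Their Kif21b signals were 4448, 2052 and 3060. Kif21b was found in 7 of 7 cells of C and 10 of 14 of B, and in 1 of 7 of A. The part of the letter in these differences was not tested.

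**Figure D5:**
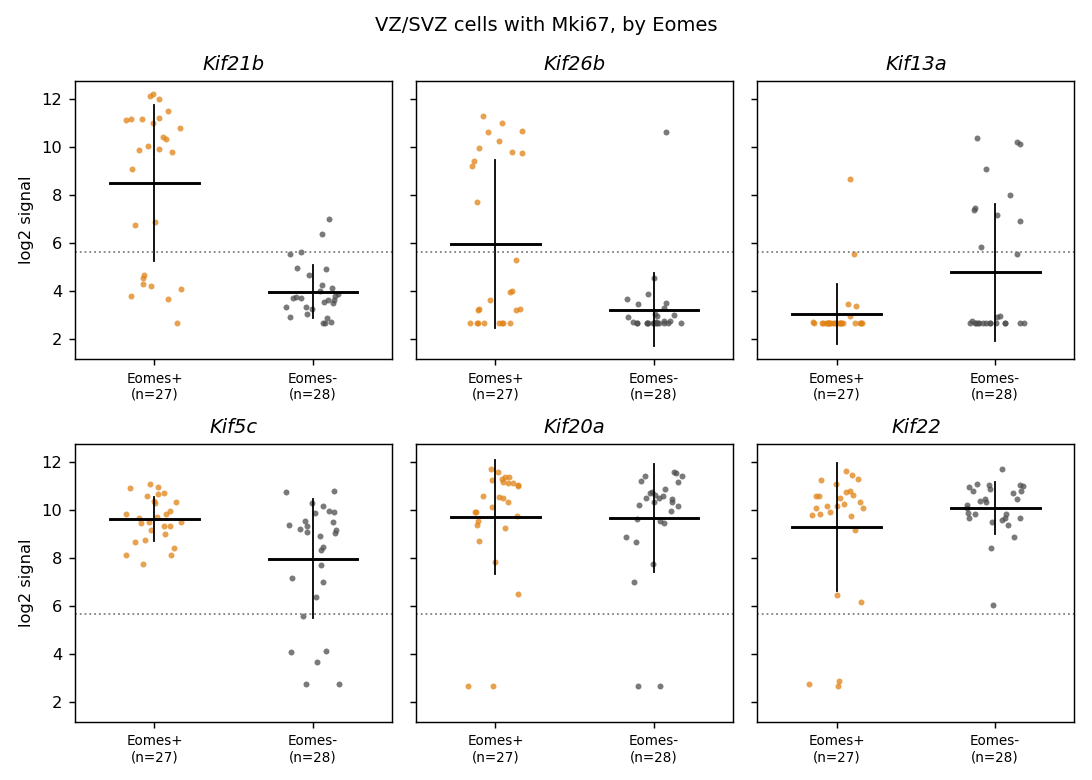
Log2 signal per cell of 6 kinesins in VZ/SVZ cells with Mki67, for the 27 with Eomes (Eomes+) and the 28 without (Eomes-), with mean and SD as bars and the limit of 50 as a dotted line. Kif21b and Kif26b have most of their bright cells in Eomes+, Kif13a in Eomes-, and Kif20a and Kif22 are bright on both sides.

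By Tubb3, with 35 cells having it and 31 not, 4 of 13 axonal transport members were higher by at least 1 and 0 lower, and 7 of 14 mitotic members were lower and 0 higher. Over all genes 5.39% were higher and 7.27% lower, and over the commonly found genes 11.3% and 16.7%. Of the 8 neuron markers, which include Tubb3 itself, 7 were higher and 0 lower, and all 8 apical progenitor markers were lower, and their part was not tested. The 4 axonal transport members were Kif21b (found in 26 of 35 cells with Tubb3 and 7 of 31 without, a difference of 4.44), Kif3a (24 and 11 cells, 2.12), Kif5a (18 and 9 cells, 1.80) and Kif5c (33 and 27 cells, 1.35). The 7 mitotic members were those commonly found, with differences from -1.32 (Kif11) to -2.80 (Kif23).

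Of the 35 cells with Tubb3, 10 lacked Mki67. Within cells with Mki67, 25 with Tubb3 and 30 without, Kif21b was found in 16 of 25 and 6 of 30, with levels differing by 3.74, and Kif3a in 14 of 25 and 11 of 30, with levels differing by 1.65. These were the only 2 axonal transport members then higher by at least 1, and Kif5a differed by 0.42. Only Kif23 of the mitotic members was then lower by at least 1 (20 of 25 and 29 of 30 cells, a difference of -1.39), and Kif20a was 0.28 higher with Tubb3. Within these cells 5.02% of all genes were higher and 5.11% lower, and 11.3% and 11.4% of the commonly found genes, and 6 of 8 neuron markers were higher and 7 of 8 apical progenitor markers lower. Kif26a was found in 0 of 35 cells with Tubb3 and 8 of 31 without. All 8 had Mki67, so the split within cells with Mki67 (0 of 25 and 8 of 30) rests on the same cells. Outside the VZ/SVZ it was found in 2 of 3 CP cells, which all had Tubb3. Kif3a was found in 11 of 17 cells with Mki67, Eomes and Tubb3 and in 0 of 10 with Mki67 and Eomes only. The means of these classes were 6.44 ± 2.59 and 2.74 ± 0.25. Without Eomes, Kif3a was found in 3 of 8 cells with Mki67 and Tubb3 and in 11 of 20 with Mki67 alone. There the means were 5.12 ± 2.94 and 5.18 ± 2.35, so among cells with Mki67 the Tubb3 difference of Kif3a was seen only beside Eomes. The 10 cells with Tubb3 and neither Mki67 nor Eomes had Kif3a in 10 of 10, with a mean of 7.49 ± 1.11.

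In the 3 CP cells, 5 of the 13 axonal transport members were higher by at least 1 than in VZ/SVZ cells and 3 lower, and of the 14 mitotic members 0 were higher and 10 lower. Over all genes 11% were higher and 20.9% lower. Over the commonly found genes 16.3% were higher and 46.9% lower, with a median of -0.84, so lower members are common here. CP cells also had lower array means, from 50.1 to 76.1 after trimming 2% of values at each end, against 59.2 to 142 in VZ/SVZ cells. With each cell scaled to 1 trimmed mean, 8 axonal transport members were higher and 0 lower, and 9 mitotic members lower, where 24.6% of the commonly found genes were higher and 38.8% lower. Over all 41 kinesins 8 were higher and 17 lower as deposited, and 11 and 11 after that scaling.

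Kif5a had signals of 3486, 1126 and 759.6 in the 3 CP cells, against 0.327 to 2039 with a median of 3.10 in VZ/SVZ cells. All 3 CP cells and 27 of 66 VZ/SVZ cells (40.9%, interval 29 to 53.7%) had it, with means of 10.49 ± 1.14 and 5.51 ± 3.44, a difference of 4.98. Kif21b had 1711, 1953 and 1460 in CP cells, against 1.47 to 4844 with a median of 48.9 in VZ/SVZ cells, a difference of 3.64. The CP cells lay within the range of VZ/SVZ cells for both genes apart from the brightest cell of Kif5a.

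Kif3c had signals of 1622, 1159 and 1014 in CP cells, against a median of 570.4 in VZ/SVZ cells, and means of 10.28 ± 0.35 and 8.15 ± 2.38. Kif13b was found in 2 of 3 CP cells (583, 20.2 and 419) and 14 of 66 VZ/SVZ cells, a difference of 2.56. Kif26a was found in 2 of 3 CP cells (89.3, 1219 and 1.33) and 8 of 66, a difference of 3.01 that was 1.12 without CP cell 2 and 4.92 without CP cell 3. That of Kif13b was 4.09 without CP cell 2, being found in both other cells, and 1.67 without CP cell 1. Kif3b was found in 2 CP cells (11.5, 243 and 72.7) and Kifc3 in 2 (252, 9.72 and 77.3), against 31 and 11 of 66 VZ/SVZ cells. The difference of Kifc3 was 1.56, but 0.49 without CP cell 1 and 2.84 without CP cell 2. With 3 cells, shares of 2 of 3 have intervals from 9.43 to 99.2%.

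Kif1b had 2391, 1699 and 2258 in CP cells and Kif5c 768, 861 and 423, with differences of 0.63 and 0.29 from VZ/SVZ cells. Lower in CP as deposited were Kif5b (59.2, 182 and 39.7, a difference of -1.63), Kif21a (244, 580.4 and 95.8, -1.41) and Kif2a (364, 8.84 and 0.453, -1.21). Without CP cell 3 Kif21a differed by -0.75 and Kif2a by -0.15, and Kif2a by -0.40 without CP cell 2 and -3.08 without CP cell 1. After scaling to 1 trimmed mean these 3 differences were -0.97, -0.75 and -0.82. Another probe set of Kif5b was higher by 2.29 in CP cells, and another set of Kif1b lower by 3.82, so the direction of both depends on the probe set. Kif3a was found in 1 of 3 CP cells (564, 34.0 and 0.413) and 35 of 66, and Kif1a in 1 of 3 (8.47, 316 and 10.7) and 12 of 66.

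Of the 14 mitotic members, only Kif22 was found in a CP cell, in CP cell 1 at 130.5, with 7.40 and 7.79 in the others. Its other probe sets were found in no CP cell. Kif20a had 2.12, 0.290 and 2.83 in CP cells, against a median of 1137 in VZ/SVZ cells, at least 7.39-fold lower, and Kif23 was at least 6.16-fold, Kif4 4.63-fold, Kif2c 4.30-fold, Kif18a 1.95-fold and Kif11 1.33-fold lower by the same bound. The interval of 0 of 3 cells reaches 70.8%. Kif7 was found in 0 of 3 CP cells and 31 of 66 VZ/SVZ cells, and Kif24 in 0 of 3 and 20 of 66. Among the rarer members, Kif13a and Kifc2 were found in 1 CP cell each. Spindle and midbody partners were lower in 13 of 14 cases, with Cdca8 in 0 of 3 and 54 of 66 cells and Cit in 3 of 3 and 38 of 66.

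Other parts of the transport machinery were read beside the motors. Of 13 axonal cargo adaptors 5 were higher in CP cells and 1 lower, against the 16.3% of commonly found genes higher and 46.9% lower given above. Mapk8ip2, a scaffold for kinesin-1, was found in 3 of 3 CP cells and 21 of 66 VZ/SVZ cells (a difference of 5.35), and Trak1, which links mitochondria to kinesin-1, in 3 of 3 and 50 of 66 (2.19). Of 14 dynein and dynactin genes, the motor complex that runs towards the cell body in axons, 4 were higher and 1 lower, beside the same shares. Dync1i1, its neuronal intermediate chain, was found in 3 of 3 CP cells and 2 of 66 VZ/SVZ cells (4.40), and in 1 of 55 with Mki67 and 1 of 11 without. The 1 lower adaptor differed by -1.30 in CP cells, and the 1 lower dynein or dynactin gene by -2.53. Of 5 kinesin light chain and adaptor genes, Kifbp was higher by 1.02 and Klc1 lower by 1.02.

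Set against the 10 VZ/SVZ cells with Tubb3 and no Mki67, 4 of the 41 kinesins were higher in CP cells and 5 lower. The mitotic members had a median difference of -0.03, with 1 higher (Kif22) and 0 lower, and 2 axonal transport members were higher and 4 lower. Over all genes 11% were higher and 15.8% lower, and over the commonly found genes 17.7% and 34.2%, so 4 of 13 lower is near the 34.2% of commonly found genes. Kif5a had means of 10.49 ± 1.14 in CP cells and 9.65 ± 1.97 in those 10 cells, found in 3 of 3 and 9 of 10. Kif21b had 10.73 ± 0.21 and 11.52 ± 0.38, found in all cells of both. Kif13b (2 of 3 and 0 of 10 cells) and Kif26a (2 of 3 and 0 of 10) were found in CP cells alone, and Kif3a in 1 of 3 and 10 of 10. Of these 10 cells, 7 were of letter D, and the part of the letter was not tested.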

How the data were processed

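Expression was measured in 69 single cells, each amplified and put on an Affymetrix array. The authors deposited one linear intensity per probe set. Per the submitters' processing notes it was made with MAS5, without a stated version or scaling. Groups came from the source label. The 41 members and all gene lists were chosen with earlier results of these data known.

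Each of 18194 genes was read from its single-gene probe set with the highest mean log2 intensity over the 69 cells. Values under 6.26, the 95th percentile of the TrpnX control readings, were set to it. Where no cell of a class passed 50, a fold change is a lower bound, the other class's geometric mean over 50. Values are given for members above 50 in at least 25% of VZ/SVZ cells or in at least 2 CP cells, other members by counts, and for other lists up to 4 genes with the largest difference. Kif1a, Kif13a and Kif26b pass neither limit, yet some of their values are also given. Kif19a and Kif25 have no single-gene probe set in the annotation used and were not analysed here, nor was 1 probe set shared by several genes, and 6 of the 124 entries of the gene lists were not measured. Computation used Python 3.11.15, pandas 2.3.3, numpy 2.4.6, scipy 1.17.1 and matplotlib 3.10.9, and the code was tested on simulated data. Alternatives covered the floor, scaling, probe set choice, class threshold, title letter and each CP cell. The number of arrays limits the precision.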

Additional observations from a re-analysis of the deposited data

How the results depend on the processing

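Counts and medians of the mitotic and axonal transport lists were recomputed under alternatives, and 145 of 176 values stayed close to those reported (counts within 1.5 times, medians within 1 SD over cells). Of the 20 recomputed medians whose reported value was at least 1 log2 unit in size 0 changed sign, and of the 68 with a smaller one 5 did, namely the axonal transport median for CP against Tubb3 cells without Mki67 (-0.176), the axonal transport median for Eomes with a floor of 50 (-0.02252), and the mitotic median for Eomes within letter B, within Mki67 cells (-0.2888) and without letter D (-0.07627). The alternative without title letter D was chosen after seeing the data. For CP cells, 5 axonal transport members were higher as deposited, 8 after quantile normalization, 8 after trimmed mean scaling, 3 with all probe sets averaged, and 2 against Tubb3 cells without Mki67, where 0 mitotic members were lower and their median was -0.03417. For Mki67, 11 mitotic members were higher, 7 with a floor of 50, and their median was 4.589 with no floor, while 3 in place of 5 axonal transport members were lower with all probe sets averaged. For Eomes, 3 mitotic members were higher, against 6 with no floor, 1 with a floor of 50, 1 within letter B, 8 without letter X, 0 within Mki67 cells and 0 without letter D. In the same contrast 1 axonal transport member was higher, against 2 with no floor, 2 after quantile normalization, 3 within letter X, 7 within letter B, 2 without letter X, 2 within Mki67 cells and 2 without letter D. Letter B holds 13 cells with Eomes and 1 without, and gave medians of -1.465 (mitotic) and 1.012 (axonal transport). Within letter B 2662 of the 7057 commonly found genes were higher with Eomes and 2404 lower, and within letter X 982 and 1533. Over all VZ/SVZ cells these numbers were 682 and 776, so large counts within letter B are common to many genes. No such share is given here for the alternative without letter X. For Tubb3, 7 mitotic members were lower, against 2 with a floor of 50, 4 with all probe sets averaged, 4 without letter X, 1 within Mki67 cells and 2 without letter D, and 4 axonal transport members were higher, against 1 with all probe sets averaged and 2 within Mki67 cells. Of single members, 935 of 968 values stayed within 1 SD of those reported. Of the 526 values whose reported difference was at least 1 in size, 12 changed sign. For Eomes these were Kif3c within letter X (0.08936), Kif4 (-1.436), Kif11 (-1.998) and Kif20a (-1.41) within letter B, and Kif4 within Mki67 cells (-0.2754). For Tubb3 they were Kif20a (0.3995) and Kif24 (0.09602) within letter B and Kif20a within Mki67 cells (0.2805). For CP against Tubb3 cells without Mki67 they were Kif11 (0.05835), Kif21b (-0.7898), Kif22 (1.149) and Kif24 (0.6769). Of the 442 values with a smaller reported difference 76 changed sign, among them Kif3a (-1.867) and Kif5c (-1.287) for CP against Tubb3 cells without Mki67. The cause was not tested. Mki67 within letter B was not run, since all 14 cells had Mki67. The result for CP rests on 3 cells. No paired analysis was possible because the labels tie no cell of a group to a cell of another. The titles also carry a number after the letter, which several letter D cells share, and its meaning is not given.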
